A study of Mus musculus with 6 samples.

Results

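The interferon-induced transmembrane genes Ifitm1, Ifitm2, Ifitm3 and Ifitm6 were followed in natural killer (NK) cells from mouse spleen, sorted for the presence or absence of CD117 (Kit, the receptor for stem cell factor). The Kit+ group was CD3-negative, NK1.1-positive and CD117-positive, and the Kit- group was CD3-negative, NK1.1-positive and CD117-negative. Both came from female C57Bl/6 mice aged 7 weeks, for which the labels name no treatment and no genetic change, by magnetic enrichment and then flow sorting. Each group had 3 samples, numbered 1 to 3 in both groups. The RNA of each sample went on its own Illumina bead array with 45988 probes, and the labels put the purity of the sorted NK cells at around 98%. The 4 genes have 9 probes in the platform annotation, 4 for Ifitm1, 2 for Ifitm2, 2 for Ifitm3 and 1 for Ifitm6, out of 17626 genes named there. The family was chosen with its rise in Kit+ cells known, so its Kit+ against Kit- values are given here as a description, without a test.

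Ifitm proteins are small membrane proteins that hinder enveloped viruses from fusing with the membranes of the cell. In mouse and human, Ifitm3 acts mainly on endosomal membranes, whereas Ifitm1 is found more at the cell surface. Interferons induce Ifitm1, Ifitm2 and Ifitm3 through the transcription factors of the Jak-Stat pathway, which bind the interferon-stimulated response element (ISRE) and the gamma-activated site (GAS), and Ifitm1 and Ifitm3 are also known from mouse primordial germ cells. Ifitm6 is the least studied of the 4.

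The promoters are shown because all 4 genes were brighter in the same samples and lie next to each other on chromosome 7. They run from 250 bases before to 50 bases after the RefSeq start site (GRCm38.p6), 300 bases each: Ifitm2 at chr7:140955912-140956211 on the minus strand, Ifitm1 at chr7:140967826-140968125 on the plus strand, Ifitm3 at chr7:141010695-141010994 on the minus strand and Ifitm6 at chr7:141016843-141017142 on the minus strand. Each is printed 5′ to 3′ on the strand of its gene, and capitals mark a match to the ISRE core (GAAA, any 2 bases, GAAA) or to TTCNNNGAA (GAS), searched on both strands.
Ifitm2: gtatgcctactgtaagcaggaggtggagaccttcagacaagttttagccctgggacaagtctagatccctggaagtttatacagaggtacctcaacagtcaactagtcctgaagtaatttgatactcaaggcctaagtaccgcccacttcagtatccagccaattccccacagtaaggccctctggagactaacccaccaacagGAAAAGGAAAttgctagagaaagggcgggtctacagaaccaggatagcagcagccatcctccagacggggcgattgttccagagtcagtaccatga
Ifitm1: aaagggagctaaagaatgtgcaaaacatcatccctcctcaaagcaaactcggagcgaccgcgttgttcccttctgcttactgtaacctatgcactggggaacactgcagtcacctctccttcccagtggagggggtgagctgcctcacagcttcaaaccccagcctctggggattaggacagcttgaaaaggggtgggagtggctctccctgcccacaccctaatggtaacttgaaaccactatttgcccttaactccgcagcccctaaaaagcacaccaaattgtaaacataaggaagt
Ifitm3: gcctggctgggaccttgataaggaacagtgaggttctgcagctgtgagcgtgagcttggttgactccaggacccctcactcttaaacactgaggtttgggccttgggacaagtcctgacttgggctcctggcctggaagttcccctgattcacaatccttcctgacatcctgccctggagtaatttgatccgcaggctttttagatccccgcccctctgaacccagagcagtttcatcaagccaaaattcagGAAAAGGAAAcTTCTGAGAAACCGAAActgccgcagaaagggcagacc
Ifitm6: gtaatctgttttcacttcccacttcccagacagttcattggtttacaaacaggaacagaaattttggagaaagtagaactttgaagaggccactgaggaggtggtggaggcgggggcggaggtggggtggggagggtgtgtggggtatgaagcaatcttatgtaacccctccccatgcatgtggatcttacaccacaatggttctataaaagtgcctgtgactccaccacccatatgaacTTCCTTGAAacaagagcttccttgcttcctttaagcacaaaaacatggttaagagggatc
The Ifitm3 window held 2 ISRE matches, GAAAAGGAAA and GAAACCGAAA, and between them 1 GAS match, TTCTGAGAA, whose end overlaps the second ISRE match. All 3 lay just after the RefSeq start site. The Ifitm2 window held 1 ISRE match, starting 46 bases before the start site, with the same letters as the first of Ifitm3. The pair shared a run of 13 bases there, CAGGAAAAGGAAA, while the longest run shared by any other pair was 8 or 9 bases. Ifitm6 had 1 GAS match, TTCCTTGAA, starting 10 bases before the start site, and Ifitm1 had no match to either motif in this window. A match describes letters and is no evidence of binding. Over all 32851 promoter windows of this length, 3.44% held the ISRE letters and 8.3% the GAS letters. Among 57 windows of 46 tested interferon-stimulated genes other than Ifitm, 23 (40.4%) held the ISRE letters and 13 (22.8%) the GAS letters.

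**Figure D1:**
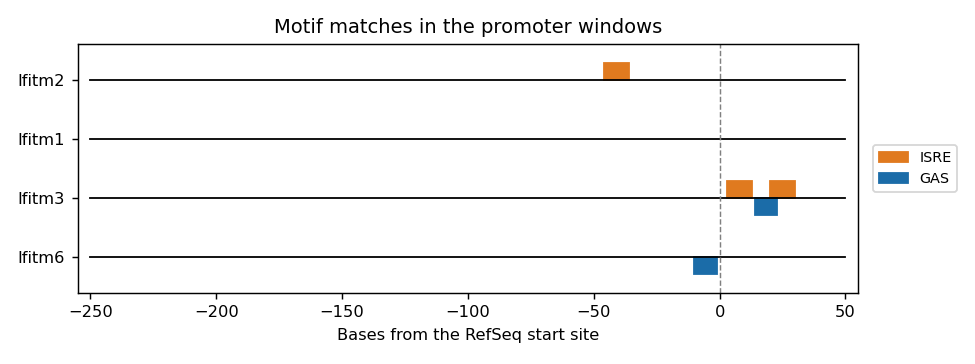
Matches to the ISRE core (GAAA, any 2 bases, GAAA; orange, above the line) and TTCNNNGAA (GAS; blue, below the line) in the 300-base promoter windows of the 4 genes, by distance in bases from the RefSeq start site (dashed). Ifitm3 has 2 ISRE matches and 1 GAS match after its start site, Ifitm2 has 1 ISRE match before it, Ifitm6 has 1 GAS match before it and Ifitm1 has none.

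The sort showed in Kit itself, at 11.17 ± 0.79 in Kit+ cells and 8.34 ± 0.55 in Kit- cells (log2 normalized intensity, SD, n = 3 each), higher in Kit+ within each number ( log2 difference 2.83, SE 0.43, limma adjusted p = 0.0321, and 0.0637 to 0.114 with 1 array left out). The mean over both tested Kit probes was 1.43. The NK1.1 gene Klrb1c was above background on every array, at 11.44 ± 0.53 in Kit+ cells and 12.04 ± 0.54 in Kit- cells (SD, n = 3 each). Of 10 tested NK identity genes, 8 exceeded background on every Kit+ array and 9 on every Kit- array. The median raw intensity of the arrays lay between 68.9 and 130, and the share of probes above background between 15.1% on Kit- 2 and 29.8% on Kit- 1. Background here is, per array, the 95th percentile over 1178 probes for smell and pheromone receptors, genes not used in lymphocytes, between 6.58 and 7.23 on the log2 scale, and it was highest on Kit- 2. In cells sorted in bulk, more cells that express a gene and more of its RNA per cell cannot be told apart.

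Ifitm3, the best studied antiviral member, was the member with the largest difference. The raw intensity of its brighter probe was 1532, 739 and 860 in Kit+ 1, 2 and 3, against 269, 93.2 and 103 in Kit- 1, 2 and 3. Every Kit+ value lay above every Kit- value, and on Kit- 2 the probe was dimmer than the median of its array (99.4). After normalization the log2 intensity was 9.45, 10.20 and 10.29 in Kit+ cells, against 7.10, 6.20 and 6.93 in Kit- cells. The means were 9.98 ± 0.46 in Kit+ cells and 6.74 ± 0.48 in Kit- cells (SD, n = 3 each), a log2 difference of 3.24 (SE 0.31) or 9.44-fold. This probe exceeded background on every Kit+ array and on 2 of 3 Kit- arrays, and with Kit- 2 at its background level the fold was 7.43. The fold was 5.12 in number 1 and 10.3 in number 3, and at least 7.8 in number 2, where the Kit- value was below background.

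The other Ifitm3 probe was dimmer in both groups and showed a smaller difference. Its log2 intensity was 8.12, 8.22 and 9.12 in Kit+ cells, against 6.83, 6.39 and 6.69 in Kit- cells, so Kit+ 3 stood above the other Kit+ samples and the groups did not overlap. The log2 difference was 1.85 (SE 0.29), 3.6-fold, or 2.96-fold with Kit- 2, where it was below background, at its background level.

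Ifitm2, which lies beside Ifitm1 in the cluster, was the member above background on all 6 arrays. Its brighter probe had a raw intensity of 1350, 652 and 799.7 in Kit+ 1, 2 and 3, against 339, 139 and 112 in Kit- 1, 2 and 3. On the normalized log2 scale this was 9.29, 10.00 and 10.18 in Kit+ cells, against 7.34, 7.25 and 7.04 in Kit- cells. The Kit- samples were close together and the Kit+ samples were spread over a wider range, with Kit+ 1 the lowest. The log2 difference was 2.61 (SE 0.25), or 6.11-fold, from 9.82 ± 0.47 in Kit+ cells and 7.21 ± 0.15 in Kit- cells (SD, n = 3 each). The other Ifitm2 probe stood at 7.76, 7.84 and 8.21 in Kit+ cells, against 6.65, 6.12 and 6.32 in Kit- cells. On 1 of 3 Kit- arrays it exceeded background, and it was at least 2.12-fold higher in Kit+ cells, with a log2 difference of 1.58 (SE 0.21).

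Ifitm1, the member found more at the cell surface, had 2 informative probes out of 4. The brightest had a raw intensity of 939.6, 617 and 768 in Kit+ 1, 2 and 3, against 337, 118 and 114 in Kit- 1, 2 and 3. Its log2 intensity was 8.84, 9.91 and 10.10 in Kit+ cells, against 7.33, 6.69 and 7.07 in Kit- cells, without overlap. Kit+ 1 was the lowest Kit+ sample and Kit- 1 the highest Kit- sample. The means were 9.62 ± 0.68 in Kit+ cells and 7.03 ± 0.32 in Kit- cells (SD, n = 3 each), a log2 difference of 2.58 (SE 0.35) or 5.99-fold, and 5.29-fold with Kit- 2, which was below background, at its background level. The second probe stood at 8.39, 7.57 and 8.08 in Kit+ cells, against 6.51, 5.78 and 6.03 in Kit- cells. None of the Kit- values of this probe was above background, which makes it at least 2.28-fold higher in Kit+ cells (measured log2 difference 1.91). The last 2 Ifitm1 probes were above background on no array, with log2 differences of 0.02 and 0.10 and overlapping groups, and one of them fell below the median brightness used as a filter. The files hold no probe sequences, so which transcripts of Ifitm1 each probe reads, and whether a probe also reads a close relative, was not tested.

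Ifitm6 was below background in Kit- cells and above it in Kit+ cells. Its 1 probe had a raw intensity of 449, 220.0 and 265 in Kit+ 1, 2 and 3, against 141, 103 and 66.7 in Kit- 1, 2 and 3. The log2 intensity was 8.0, 8.21 and 8.53 in Kit+ cells, against 6.42, 6.41 and 6.27 in Kit- cells. No Kit- array showed the gene above background and all 3 Kit+ arrays did. It was at least 2.67-fold higher in Kit+ cells, with measured means of 8.24 ± 0.27 in Kit+ cells and 6.37 ± 0.08 in Kit- cells (SD, n = 3 each).

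**Figure D2:**
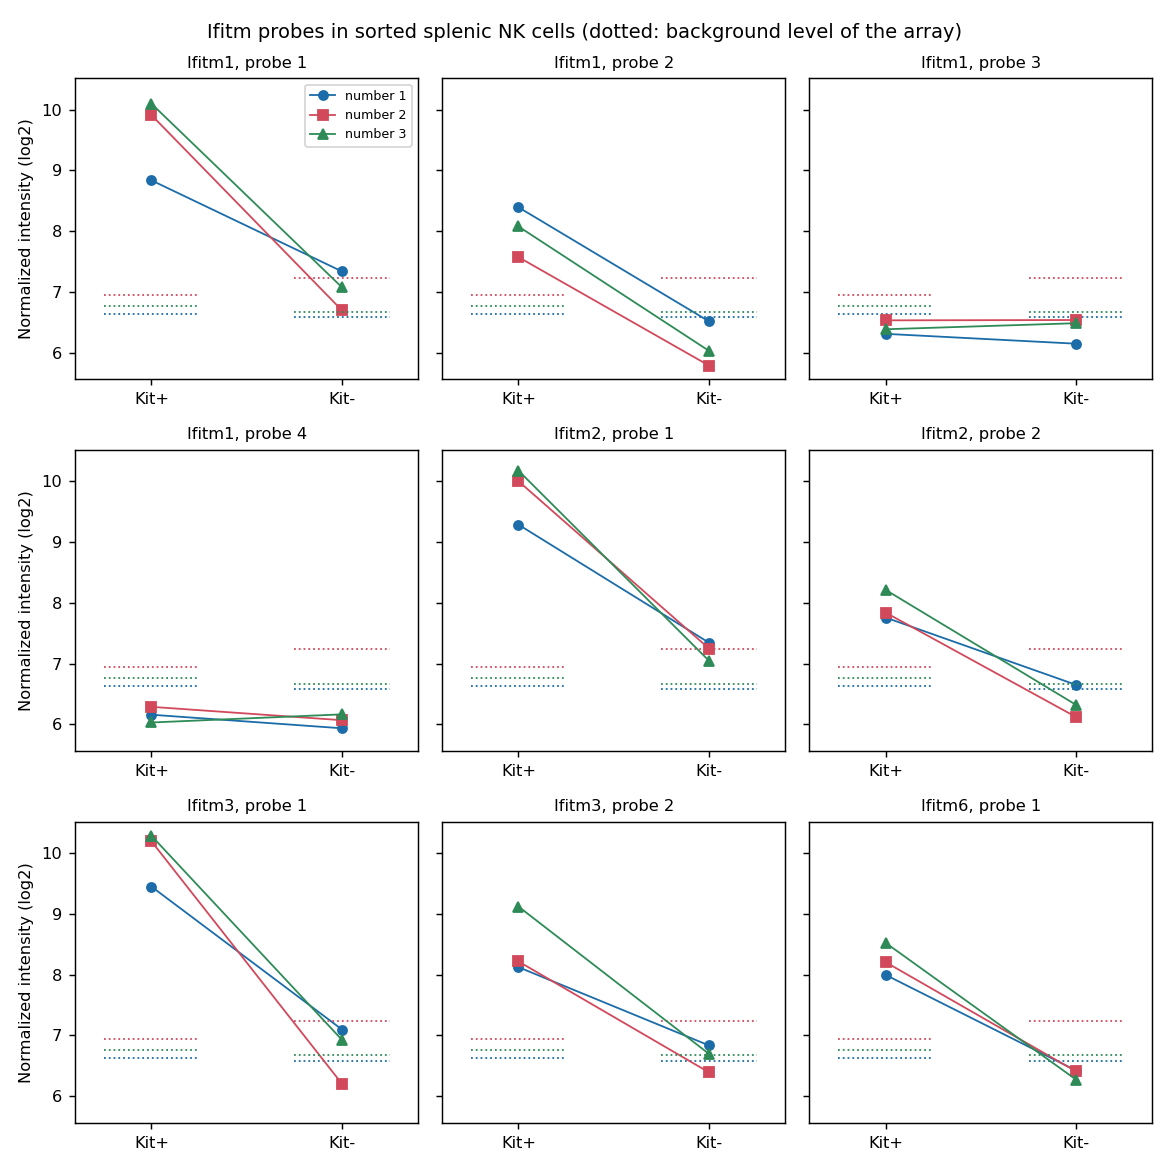
Normalized log2 intensity of the 9 Ifitm probes in Kit+ and Kit- cells, with a line joining the samples of the same number and dotted lines at each array's background level. In 7 probes every Kit+ point lies above every Kit- point, and 2 of the 4 Ifitm1 probes stay below background on all arrays.

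Of the 9 probes, the 7 that were above background on all Kit+ arrays were higher in Kit+ within every number and had groups that did not overlap. Among all 22994 probes tested, 7.91% had every Kit+ value above every Kit- value. The same 7 of the 8 Ifitm probes tested passed an adjusted p of 0.05 in the fit over all probes. In that fit 0.335% of probes passed as higher. With the replicate number as a block 7 passed, where 2.25% of probes did. By its brightest probe, Ifitm1 passed in 2 of 6 fits with 1 array left out (limma adjusted p up to 0.101). Without Kit- 3, only 1 member gene passed. All member genes passed in 11 of 17 alternative fits. Nothing is read from these counts, since the family was chosen on this contrast. With median centring of the arrays in place of quantile normalization no probe on the array passed, while the log2 differences of the brightest probes stayed at 3.12 for Ifitm3, 2.56 for Ifitm2, 2.43 for Ifitm1 and 1.83 for Ifitm6.

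The size of the difference varied between the numbers, and Kit- values below background limit its order. The Kit- 2 value was above background for 1 of the 7 informative probes, the brighter Ifitm2 probe, against 5 probes for Kit- 1 and 4 for Kit- 3. As measured, the difference was smallest in number 1 for 6 of the 7 probes. With each Kit- value below background put at its array's background level, a setting chosen after the data were seen, it was smallest in number 1 for 3 probes and in number 2 for 4. In that setting it was largest in number 3 for 6 probes and in number 1 for the second Ifitm1 probe. The brighter Ifitm2 probe, which needs no such bound, had log2 differences of 1.95, 2.76 and 3.13 in numbers 1, 2 and 3. On the raw scale Kit+ 1 and Kit- 1 were each the brightest sample of their group for all 7 probes, and Kit- 1 also had the highest median and 99th percentile of all arrays. The 99th percentile was 4850 on Kit+ 1 and 6370 on Kit- 1. It was 1355 and 1516 on Kit+ 2 and 3, and 1027 and 1951 on Kit- 2 and 3. After quantile normalization Kit+ 1 was the lowest Kit+ sample for the brightest probe of each Ifitm gene. Over the 6 arrays the Pearson correlation between the 7 probes ran from 0.878 to 0.995 in 21 pairs, a description that rests largely on the gap between the groups. The dim Ifitm1 probe that was tested correlated with them between -0.23 and 0.09.

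**Figure D3:**
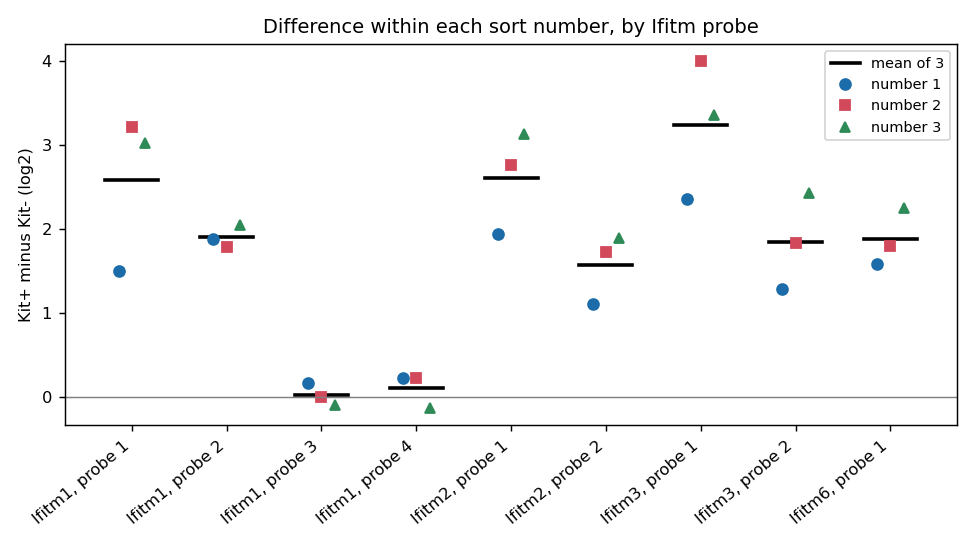
Difference between the Kit+ and the Kit- sample of each number (log2 normalized intensity) for the 9 Ifitm probes, with the mean of the 3 as a bar. As measured, number 1 is the lowest of the 3 in 6 of the 7 informative probes, but 6 of the 7 number 2 differences rest on a Kit- value below background, and the 2 dim Ifitm1 probes lie around 0.

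The Ifitm genes lie in one cluster on chromosome 7, in the RefSeq order Ifitm5, Ifitm2, Ifitm1, Ifitm3, Ifitm6. Ifitm5, a bone-forming cell member of the family, had 1 probe, which was above background on no array (raw intensity 73.0, 105 and 58.0 in Kit+ 1, 2 and 3, against 139, 95.3 and 65.9 in Kit- 1, 2 and 3). Of the 12 protein-coding genes taken as neighbours, 6 on each side of the cluster, 9 were bright enough to be tested. They were Sirt3, Psmd13, Cox8b, Nlrp6, B4galnt4, Pkp3, Sigirr, Ptdss2 and Rnh1. By the brightest tested probe of each, their log2 differences ran from -1.05 to 0.31. The brightest probes of Sirt3 and Psmd13 stood at 0.31 and -0.09, but the means over both tested probes were -0.21 and -1.02. Cox8b and B4galnt4 were above background on no array. None of the brightest probes passed in limma over all probes, and 1 gene had an unadjusted p under 0.05. That gene was Sigirr, a brake on interleukin-1 family receptor signalling, at 6.37, 6.09 and 6.06 in Kit+ cells, against 7.73, 6.84 and 7.10 in Kit- cells. Its groups did not overlap (log2 difference -1.05, SE 0.25, limma adjusted p = 0.125, and 0.0141 with the replicate block). Sigirr was above background on no Kit+ array and at least 1.36-fold lower in Kit+ cells.

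**Figure D4:**
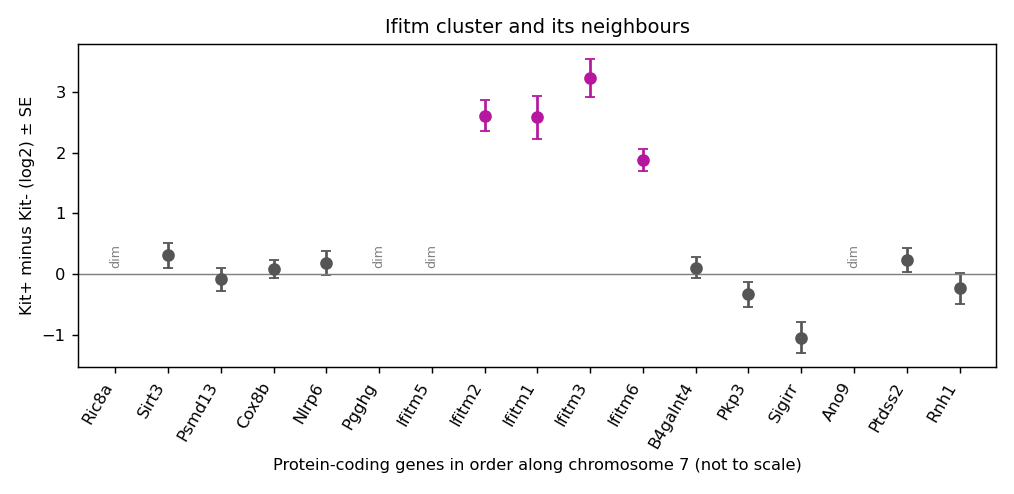
Kit+ minus Kit- log2 difference with its SE (n = 3 each) for the genes of the Ifitm cluster (magenta) and 6 protein-coding neighbours on each side (grey), in their order along chromosome 7. Each gene stands by its brightest tested probe. The 4 Ifitm genes lie between 1.88 and 3.24, the tested neighbours between -1.05 and 0.31. Genes marked dim had no probe bright enough to be tested.

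Relatives that share the CD225 domain outside the cluster showed little signal. Of 10 such genes listed, 3 had a named probe and 2 were tested, Ifitm10 (log2 difference -0.10, SE 0.26, limma adjusted p = 0.98) and Prrt1 (-0.16, SE 0.21, limma adjusted p = 0.936), neither above background on all arrays of a group.

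Other interferon-stimulated genes were compared in the same fit, each by its brightest tested probe. Of 72 listed, 68 had a named probe and 54 were tested. None rose and 1 fell, against 0.511% of all 11743 genes that rose and 0.707% that fell. These counts rest on 1 probe per gene, and other tested probes of some genes differed. Psmb8 had a log2 difference of -0.02 by its brightest probe and -1.70 as the mean over 3 tested probes. For Irf1 the values were -0.001 and, over 4 tested probes, -0.64. At an unadjusted p under 0.05, 9 were higher and 6 lower. The list's median log2 difference was 0.20, with 36 above 0 and 18 below, and the median of all genes was 0.03. Slfn2, a Schlafen gene of T cell and myeloid quiescence, was the one that fell. It stood at 6.62, 7.26 and 7.12 in Kit+ cells, against 8.57, 8.87 and 8.82 in Kit- cells. The groups were far apart (log2 difference -1.75, SE 0.21, limma adjusted p = 0.0155, above background on 2 of 3 Kit+ arrays), but the call ended without Kit+ 3 (adjusted p = 0.0637), Kit- 2 (0.0557) or Kit- 3 (0.0832).

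Among the interferon-stimulated genes one exceeded Ifitm6 in its difference. Ifi27l2a, a small membrane protein gene strongly induced by type I interferon, stood at 10.13, 9.71 and 10.16 in Kit+ cells, against 8.52, 6.83 and 8.2 in Kit- cells. The groups did not overlap, and Kit- 2 was below background (log2 difference 2.15, SE 0.42, limma adjusted p = 0.0708). Its second tested probe had the opposite sign, and the mean of both was 0.90. Rsad2, which encodes the antiviral enzyme viperin, had a log2 difference of 0.73 (SE 0.18, limma adjusted p = 0.132). Ddx58, the RNA sensor RIG-I, was below background on all Kit+ arrays and at least 2.31-fold lower there (limma adjusted p = 0.063), with 1 of 2 tested probes of the opposite sign. With the replicate block, 4 of the 54 rose, Ifi27l2a and Rsad2 among them, and 3 fell, Slfn2 and Ddx58 among them, against 3.29% and 3.77% of all genes. These lists and the Ifitm genes were set side by side as values, and a difference between them was not tested.

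Isg15, Irf7, Bst2 and Ifit3, classical members of the interferon response, did not pass the threshold with or without the replicate block. Isg15, a ubiquitin-like modifier, had a log2 difference of -0.58 (SE 0.24, limma adjusted p = 0.397) and was above background on no Kit+ array, with groups that did not overlap. Irf7, the factor that amplifies type I interferon production, stood at -0.12 (SE 0.23, limma adjusted p = 0.971). Bst2, the tethering factor tetherin, stood at 0.16 (SE 0.23, limma adjusted p = 0.948), and Ifit3, an RNA-binding effector, at 0.32 (SE 0.34, limma adjusted p = 0.905), with 2 of its 3 tested probes of the opposite sign. The probes of Ifit1 and Mx1 were too dim to be tested. A p that misses the threshold does not show that these genes were alike in both groups.

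**Figure D5:**
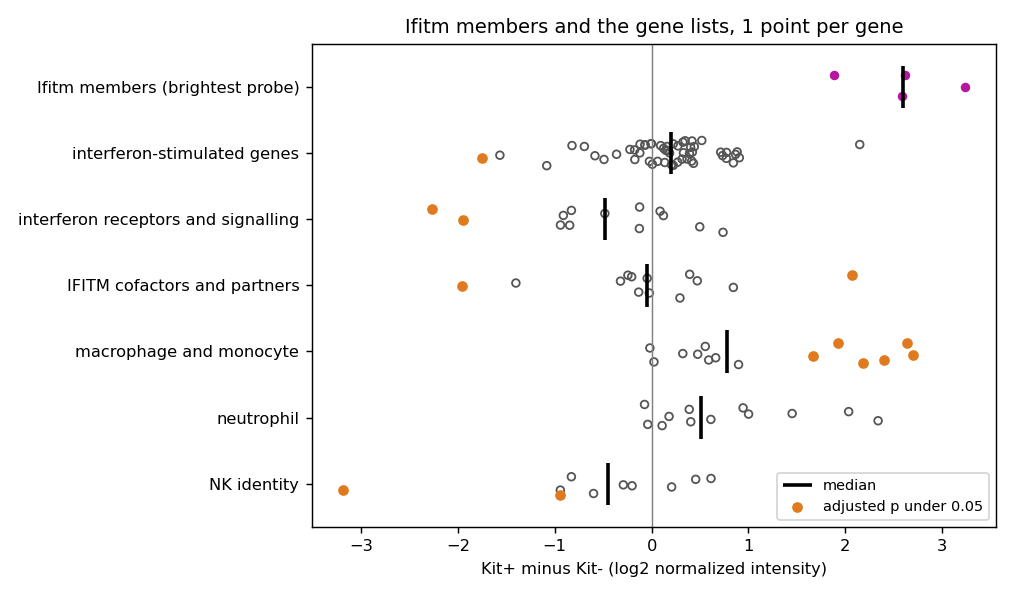
Kit+ minus Kit- log2 difference of each tested gene (points) in the gene lists, with the list median as a bar and genes at an adjusted p under 0.05 in orange. The Ifitm members, drawn by their brightest probes and without a test, lie between 1.88 and 3.24, the interferon-stimulated genes mostly between -1 and 1 with a median of 0.20, and the macrophage and monocyte markers at a median of 0.78.

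Among interferon receptor and signalling genes, Ifngr1 and Tyk2 fell in Kit+ cells. Of 13 tested genes of interferon receptors, kinases, regulators and ligands, 2 fell and none rose (list median -0.48). With the replicate block 3 fell and none rose. Over all genes 0.707% fell, and 3.77% with the block. Ifngr1, the ligand-binding chain of the interferon-gamma receptor, stood at 7.20, 7.99 and 8.05 in Kit+ cells, against 10.06, 9.87 and 10.12 in Kit- cells. It fell 4.81-fold (log2 difference -2.27, SE 0.25, limma adjusted p = 0.0113), and without Kit- 3 the adjusted p was 0.0685. Tyk2, a kinase of the type I interferon receptor, stood at 6.38, 6.46 and 7.13 in Kit+ cells, against 8.91, 8.35 and 8.56 in Kit- cells. It exceeded background on 1 of 3 Kit+ arrays and was at least 3.27-fold lower in Kit+ cells (limma adjusted p = 0.0192), a call that ended without Kit+ 1 (adjusted p = 0.0658), Kit+ 2 (0.09) or Kit- 3 (0.0889). Socs1, a feedback inhibitor of Jak kinases, had a log2 difference of -0.85 (SE 0.23, limma adjusted p = 0.174). Ifngr2, the second receptor chain, was above background on no Kit- array and at least 1.09-fold higher in Kit+ cells (measured log2 difference 0.74, SE 0.22, limma adjusted p = 0.217). The receptor chains of type I interferon, Ifnar1 and Ifnar2, had log2 differences of -0.12 and -0.13 (limma adjusted p = 0.981 for both). Ifnar1 was above background on only 1 of 3 arrays in each group.

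Among genes whose proteins bind or modify Ifitm proteins, Cd81 rose and Fyn fell. These were 2 of 13 tested, against 0.511% of all genes that rose and 0.707% that fell, and the list median was -0.05. Cd81, a tetraspanin that shares a surface complex with IFITM1 in human B cells, stood at 9.37, 9.02 and 9.77 in Kit+ cells, against 7.48, 6.90 and 7.57 in Kit- cells. It rose 4.21-fold (log2 difference 2.07, SE 0.26, limma adjusted p = 0.0184), or 3.89-fold with Kit- 2, the one Kit- array where it was below background, at its background level. The call ended without Kit+ 1 (adjusted p = 0.0637), Kit+ 3 (0.0694) or Kit- 3 (0.0685). Fyn, a Src family kinase that phosphorylates human IFITM3, stood at 6.36, 6.26 and 6.50 in Kit+ cells, against 8.04, 8.57 and 8.38 in Kit- cells. It was above background on no Kit+ array and at least 2.93-fold lower there (limma adjusted p = 0.00707, and 0.0538 without Kit- 3). Setd7, a methyltransferase that acts on human IFITM3, had a log2 difference of 0.84 (SE 0.23, limma adjusted p = 0.168, with 1 of 3 tested probes of the opposite sign). The tetraspanin Cd9 had a log2 difference of -1.40 (SE 0.39, limma adjusted p = 0.176, and 0.0449 with the replicate block). The palmitoyltransferase gene Zdhhc20, the protease gene Zmpste24 and the endoplasmic reticulum membrane protein gene Vapa lay at 0.29, 0.39 and 0.47 (limma adjusted p = 0.721, 0.8 and 0.767), and 2 of 3 tested Zmpste24 probes had the opposite sign.

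The genes whose 6 values were most like those of the brighter Ifitm3 probe were found by correlation among 2252 other genes that varied by at least 0.5 (SD, log2). In order they were Ear10, Gngt2, Sort1, Ifitm1, Lst1, Hpgd, Cd63 and 6430548M08Rik, with Pearson correlations over the 6 arrays from 0.9999 for Ear10 to 0.986. Ifitm2 ranked 10th and Ifitm6 12th, at 0.983 and 0.979. Ear10, an eosinophil-associated ribonuclease gene whose probe may also read its close copies, stood at 9.10, 9.69 and 9.81 in Kit+ cells, against 7.24, 6.46 and 7.06 in Kit- cells. Like Ifitm3 it was lowest in number 1 among the Kit+ samples and in number 2 among the Kit- samples. On Kit- 2, however, Ifitm3 and all 8 genes most like it were below background (7.23), and each was lowest there among the Kit- samples. Gngt2, a G protein gamma subunit gene, stood at 7.77, 7.99 and 8.23 in Kit+ cells, against 6.66, 6.21 and 6.77 in Kit- cells. Sort1, the sorting receptor sortilin, and Cd63, a tetraspanin of late endosomes, exceeded background on no Kit- array and on every Kit+ array, and were at least 1.45-fold and 1.95-fold higher in Kit+ cells. The 6 arrays fall into 2 groups, and any gene that differs strongly between the groups correlates highly.

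Markers of macrophages and monocytes, cells that also express Ifitm2, Ifitm3 and Ifitm6 in mouse, were mostly higher in Kit+ cells, the same group direction as the family. Of 14 tested, 6 rose and none fell, against 0.511% of all genes that rose and 0.707% that fell. The list median was 0.78, against 0.03 for all genes, and 13 of 14 were above 0. The 6 were the iron exporter Slc40a1, the adhesion molecule Vcam1, the macrophage receptor Adgre1, the perforin-like Mpeg1, the Fc receptor Fcgr4 and the receptor kinase Axl. The summed linear intensity of all 14 tested markers lay between 4193 and 4594 in Kit+ samples and between 1431 and 1523 in Kit- samples, without overlap. Among the Kit+ samples the sum was 4444, 4594 and 4193 in numbers 1, 2 and 3, lowest in number 3. The brightest probe of each Ifitm gene was lowest in Kit+ 1. Of the markers that define the lineage, Adgre1 stood at 8.88, 8.56 and 8.61 in Kit+ cells, against 6.45, 7.05 and 6.77 in Kit- cells, at least 3.53-fold higher in Kit+ cells (limma adjusted p = 0.00911, and 0.0557 without Kit+ 3 and 0.0643 without Kit- 3). Lyz2 had a log2 difference of 0.32 (SE 0.30, limma adjusted p = 0.879) and the complement genes C1qa, C1qb and C1qc of 0.48, 0.90 and 0.66. Marco and Mrc1 stood at 0.55 and 0.59. Each of these was above background on no more than 2 Kit+ arrays. Ccr2 and Mertk lay at 0.02 and -0.02 (limma adjusted p = 0.996 and 0.997). Cd14, Fcgr1, Spic, Cd163 and Msr1 were too dim to be tested, and Csf1r, Cd68 and Ly6c2 had no probe with their name. Slc40a1 stood at 9.41, 9.82 and 9.27 in Kit+ cells, against 6.88, 6.68 and 7.03 in Kit- cells (log2 difference 2.64, SE 0.20, limma adjusted p = 0.00345), and Vcam1 had a log2 difference of 2.18 by its brightest probe and 0.66 over its 4 tested probes. Both passed in all 6 fits with 1 array left out, Fcgr4 and Mpeg1 in 3 (up to 0.0832 and 0.0811) and Axl in none (up to 0.129). The part of such cells in the Ifitm values was not tested.

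Other cell types were described by their marker lists in the same way. Neutrophil markers had a median of 0.51 over 12 tested genes, with none past the threshold (3 rose with the replicate block) and 10 of 12 above 0. The largest log2 differences were those of S100a8 and S100a9, 2.34 (SE 0.48, limma adjusted p = 0.0846) and 2.03 (SE 0.53, limma adjusted p = 0.158). Csf3r, Lcn2, Mmp9 and Cxcr2 lay at 0.18, 0.11, -0.04 and -0.07. Ngp, Mmp8 and Ctsg were too dim to be tested, and Ly6g had no probe with its name. The sum over all 12 neutrophil genes lay between 1517 and 3241 in Kit+ samples, with Kit+ 2 the lowest, and between 1091 and 1263 in Kit- samples. Dendritic cell and MHC class II genes had a median of 0.64 over 11 genes, 1 of which rose, Batf3 (in 1 of 6 fits with 1 array left out, adjusted p up to 0.101). Of the 11, 8 were above 0 and 3 below. Zbtb46, Siglech, Ciita, Itgax and Xcr1 had log2 differences of -0.22, -0.19, -0.09, 0.17 and 0.06 and passed in neither fit. Flt3 and Clec9a were too dim to be tested. With the replicate block 5 of the 11 rose, among them H2-Aa, at 11.08, 9.55 and 11.30 in Kit+ cells, against 8.82, 7.40 and 9.49 in Kit- cells (log2 difference 2.07, SE 0.62, limma adjusted p = 0.213 without the block and 0.000924 with it). B cell genes had a median of 0.20 over 5, with none past the threshold and 1 with the block. T cell genes had a median of 0.08 over 6, with none past the threshold and 1 with the block, Cd3d. This CD3 chain gene stood at 10.44, 11.44 and 11.37 in Kit+ cells, against 8.75, 9.85 and 10.34 in Kit- cells, both sorted as CD3-negative (log2 difference 1.44, SE 0.44, limma adjusted p = 0.223, and 0.00488 with the block), while Cd3e had a log2 difference of -0.81 (SE 0.49, limma adjusted p = 0.667). Erythroid genes had a median of 0.27 over 5, all above 0 and none past the threshold with or without the block, with Hba-a1 at 1.35 (SE 0.40, limma adjusted p = 0.209). Markers of basophils and mast cells, which carry Kit (mast cells) or express Ifitm1 (basophils), had a median of 0.07 over 6 tested genes. None passed the threshold with or without the block, and Fcer1a and Cpa3 were above background on no array. Ms4a2 and Prss34 were each above background on 2 of 3 Kit+ arrays, and on 0 and 1 Kit- arrays. Their log2 differences were 0.28 and 0.24 (limma adjusted p = 0.898 and 0.884). Mcpt8, Hdc, Mcpt4, Cma2 and Tpsab1 were too dim to be tested. Markers of haematopoietic progenitors, many of which carry Kit, had a median of 0.62 over 8 genes, with Lmo2 at 1.33 (SE 0.24, limma adjusted p = 0.058, and 0.00467 with the replicate block) and none past the threshold, but 2 with the block, Lmo2 and Tal1. NK identity genes had a median of -0.45 over 10 genes, with Prf1 (perforin, above background on 2 of 3 Kit+ arrays) and Eomes past the threshold as lower, though Eomes in none of 6 fits with 1 array left out. The part of these cell types in the Ifitm values was not tested either.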

How the data were processed

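Per the file headers, each deposited array file gives a raw intensity per probe, on a linear scale and without a detection value. BeadStudio 3.1.1.0 is named in the submitters' processing notes. The series' value table, deposited as intensity, has a median of 92.8 in every column and equals a quantile normalization of the raw intensity to within 0.000223 of a value, uncentred and on the linear scale. Per the labels' protocols, 50 to 100 ng of RNA was amplified and labelled with biotin.

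Raw intensity was corrected with normexp (offset 50), and its log2 values were quantile normalized. Probes with a mean above the median of all probes were tested (22994 of 45988) with limma 3.58.1 (lmFit, eBayes; R 4.3.3), without a block, and adjusted by Benjamini-Hochberg over all of them, at a threshold of 0.05. The code was tested on simulated data. Symbols came from GEO's platform annotation, updated by gene ID (29457 probes with 1 symbol, 11 with several, 16520 with none; 29399 matched RefSeq of GRCm38.p6), and all 4 members had a RefSeq promoter. A listed gene stands by its brightest tested probe. The background level was chosen after the data were seen. "At least" folds set the dimmer group's arrays at the higher of their value and background. Where a bound replaces a fold, the dimmer group was above background on at most 1 array.

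The members and the 13 gene lists were chosen with earlier results of these data known. Named genes were the members, Kit and Klrb1c, every gene past the threshold and up to 4 with the smallest p in each pathway list and the macrophage list, 7 set interferon-stimulated genes (1 is not reported here), the 8 most like Ifitm3, 6 neighbours on each side and up to 2 of each other list. Ifnar1, Ifnar2, Zmpste24, Psmb8, Irf1, Lyz2, C1qa, C1qb, C1qc, Cd14, Fcgr1, Csf1r and Cd68 were added after values were seen. So were Ccr2, Mertk, Marco, Mrc1, Spic, Cd163, Msr1 and Ly6c2. The same holds for the neutrophil, dendritic cell, and basophil and mast cell markers named beyond 2 per list. Same-numbered samples deviated together from their group means (r = 0.632, 0.537 and 0.324 across probes), so the numbers, taken from the titles, pair the samples. The main fit and the fits with 1 array left out do not use this pairing, and only the fits with the replicate block do. Genes said to rise, fall or pass did so in the main fit unless another fit is named. Without the block, the p-values measure the spread between samples of a group, which includes variation between the numbers, from sorts done 3 times per the labels. With the block, they measure the spread of the differences within the numbers. In both, the number of arrays limits the precision.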

Additional observations from a re-analysis of the deposited data

How the results depend on the processing

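The Ifitm log2 differences kept their sign under every alternative run, from 1.5 to 3.12 for Ifitm1, 2.09 to 2.95 for Ifitm2, 2.54 to 3.79 for Ifitm3 and 1.69 to 2.46 for Ifitm6. With the mean of a gene's tested probes they were 1.5 for Ifitm1, 2.09 for Ifitm2 and 2.54 for Ifitm3, since dimmer probes count equally. With a normexp offset of 16 they were 3.79 for Ifitm3 and 2.46 for Ifitm6, since a smaller offset widens differences of dim probes. With 1 array or both arrays of a number left out they ran from 2.26 to 3.12 for Ifitm1, 2.35 to 2.95 for Ifitm2, 2.86 to 3.68 for Ifitm3 and 1.69 to 2.03 for Ifitm6. The replicate block left the 4 differences as they were (3.24 for Ifitm3).

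Of all probes, 263 passed in the fit without a block, 77 higher and 186 lower. With the replicate block 1342 passed (518 higher, 824 lower), with array weights 1481 (427 and 1054), with 1 probe per gene 147 (62 and 85) and with median centring 0 in limma (1420 at an unadjusted p under 0.05); the cause was not tested. With 1 Kit+ array left out the counts were 98 (without number 1), 83 (number 2) and 63 (number 3), with 1 Kit- array left out 176, 100.0 and 50.0 for the same numbers, and without both samples of number 1, 2 or 3, with the block, 1516, 277 and 1475. For the interferon-stimulated genes, 1 passed in the main analysis, 2 with an offset of 16, 0 with median centring (limma; 4 at an unadjusted p under 0.05), 7 with the replicate block, 3 among probes above background on at least 3 arrays, 6 with array weights, and 0 to 10 with arrays left out.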
